A study of Mus musculus with 6 samples.

Results

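The genes described here carry glucose into brain cells, split it to pyruvate, and decide whether pyruvate becomes lactate or enters the mitochondrion. They are 37 listed genes, among them glucose transporters, the glycolytic enzymes, lactate dehydrogenases, monocarboxylate transporters, the pyruvate dehydrogenase complex with its kinases and phosphatase, pyruvate carboxylase and *Hif1a*. The array reads a transcript through probe sets, each made of several short oligonucleotides, and a probe set was taken when its gene symbol entry named any of these genes. All 37 genes were found, on 87 of the 45077 probe sets of the array, and 22527 gene symbols were represented in all. Where a gene had several probe sets (24 of the 37 genes, up to 5 each), the value given is that of the brightest, the one with the highest mean signal over the 3 groups.

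The arrays measured RNA of the cerebral cortex of male mice in 6 samples, 2 in each of 3 groups, and the sources used here do not say whether a sample is 1 mouse or a pool. The group SAMR1 + Water (SAMR1) is a senescence-accelerated mouse (SAM) strain that is resistant to early senescence, kept as the control for normal aging, SAMP8 + Water (water-fed SAMP8) is the senescence-prone SAM strain, and SAMP8 + STEE (STEE-fed SAMP8) is the same strain given sugarcane top ethanolic extract (STEE) by mouth at 20 mg/kg. The extract, or an equal volume of water, was given for 30 days and then through 8 days of behavioral testing. The labels give an age of 16 weeks for all mice. In the methods of the study, SAMP8 mice were of this age before acclimatization and administration, so the mice were older when the cortex was taken. According to the same methods, the mice were housed singly and also drank the thymidine analog BrdU during the administration. Neither strain carries a transgene, and the strains differ at many loci, so that a strain difference belongs to no single gene.

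In brain, glucose enters through facilitative transporters of the endothelium, glia and neurons and is broken down by a chain of enzymes of which hexokinase and phosphofructokinase are the main points of control. Pyruvate is either reduced to lactate, which crosses membranes through proton-coupled monocarboxylate transporters, or oxidised by the pyruvate dehydrogenase complex. Pyruvate dehydrogenase kinases switch this complex off by phosphorylation and pyruvate dehydrogenase phosphatase switches it on again.

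The deposited values are group means of log2 signal, rounded to 2 decimals. No value of a single sample was used, so the differences below have no standard error and no test, and none of them can be set against the spread between samples. The size of each difference was read instead against all genes measured on the same arrays. A difference was called when it reached 0.25 on the log2 scale in either direction, a fold of 1.19, and counts of called genes are given with the called share of all genes. On the log2 scale, the 5% and 95% points of the differences of all genes were -0.22 and 0.22 for water-fed SAMP8 minus SAMR1. They were -0.16 and 0.16 in the case of STEE-fed SAMP8 minus water-fed SAMP8, and -0.21 and 0.25 for STEE-fed SAMP8 minus SAMR1. The median log2 signal of the whole array was 4.16 in SAMR1 and 4.15 in both SAMP8 groups.

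Some tissue markers differed between the strains, and their part in the results below was not tested. The 5 striatal markers *Drd1*, *Adora2a*, *Ppp1r1b*, *Rgs9* and *Pde10a* were higher in water-fed SAMP8 than in SAMR1, by 0.32 to 0.89, and their mean log2 signal was 7.52 in SAMR1, 8.14 in water-fed SAMP8 and 8.20 in STEE-fed SAMP8. All 6 oligodendrocyte markers were lower, by 0.07 to 0.63 in size, with means of 9.79, 9.48 and 9.47. The 7 neuronal markers were higher by 0.01 to 0.24, with means of 9.59, 9.69 and 9.74. The cortical marker *Tbr1* read 8.12, 8.28 and 8.57, above the array median in every group. It was 0.29 higher with STEE, and the other neuronal markers differed by -0.12 to 0.09 with STEE. The choroid plexus markers had means of 4.67, 4.21 and 4.37, of which *Ttr* (transthyretin) read 10.20, 8.24 and 9.33. With STEE *Ttr* was 1.09 higher, and the other 5 of these markers differed by -0.09 to 0.02. Fewer cells of a type and less RNA per cell cannot be told apart in such tissue.

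Sequences upstream of the members bear on the hypoxia-inducible factor among them, a transcription factor known to drive many glycolytic genes. Its core motif starts with A or G, and only the form ACGTG was searched. The 250 bases before each annotated start were read from RefSeq (build GRCm38.p6) for 33 of the 37 genes, in 50 windows. The form ACGTG, called the motif below, was searched on both strands, so that it appears as ACGTG or, from the other strand, as CACGT. It overlaps the E-box CACGTG, where both readings fall in the same place. It was present in 21 of the 50 windows (42%), belonging to 17 genes, and in 16.6% of the 32851 windows of all genes. The E-box form was found in 8 of the 50 windows (16%) and in 6.02% of all windows. The windows of the members also had a higher median content of G and C, 60.6% against 52.4%. A match of these letters is not a binding site.

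Of the members with a called difference, *Pfkfb3*, *Slc16a1* and *Pdk3* had a window with the motif, and *Pdk4* and *Slc16a4* had windows without it. Among all members read, these called genes included, 17 of 33 genes had the motif. The *Pdk4* window holds GCGTG, a form that was not searched. *Slc16a7* and *Pdp1* had no window among those read. The windows of called genes with a match are shown here, 5′ to 3′ on the strand of the gene, with the matching bases in capitals. Whether the motif has a part in the differences described below was not tested.
Pfkfb3, chr2:11502091-11502340, minus strand: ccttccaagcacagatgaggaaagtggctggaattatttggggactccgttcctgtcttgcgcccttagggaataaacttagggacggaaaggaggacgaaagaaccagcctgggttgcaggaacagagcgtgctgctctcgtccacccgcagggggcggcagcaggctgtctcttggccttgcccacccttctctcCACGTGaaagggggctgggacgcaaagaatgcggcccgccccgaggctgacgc
Pfkfb3, chr2:11553930-11554179, minus strand: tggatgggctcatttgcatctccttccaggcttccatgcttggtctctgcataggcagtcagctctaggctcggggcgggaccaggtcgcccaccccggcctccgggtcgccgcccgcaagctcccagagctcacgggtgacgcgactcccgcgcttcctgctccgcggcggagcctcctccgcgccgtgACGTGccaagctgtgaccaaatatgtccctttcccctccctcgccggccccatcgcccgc
Slc16a1, chr3:104638414-104638663, plus strand: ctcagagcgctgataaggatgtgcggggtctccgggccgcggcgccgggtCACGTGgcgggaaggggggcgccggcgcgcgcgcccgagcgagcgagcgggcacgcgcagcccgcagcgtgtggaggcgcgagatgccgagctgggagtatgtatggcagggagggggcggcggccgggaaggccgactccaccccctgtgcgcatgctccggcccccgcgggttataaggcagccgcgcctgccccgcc
Pdk3, chrX:93832151-93832400, minus strand: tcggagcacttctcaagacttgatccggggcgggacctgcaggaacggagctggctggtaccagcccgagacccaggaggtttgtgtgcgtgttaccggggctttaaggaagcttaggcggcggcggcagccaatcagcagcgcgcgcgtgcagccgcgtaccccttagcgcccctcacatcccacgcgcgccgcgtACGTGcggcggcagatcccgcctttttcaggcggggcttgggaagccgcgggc
The probe sets of *Pfkfb3* were not assigned to either of its starts.

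At 0.25 on the log2 scale, 5 of the 37 genes were called for water-fed SAMP8 minus SAMR1, against 8.09% of all genes. Of these, 4 were higher in water-fed SAMP8 (4.25% of all genes) and 1 was lower (3.84%). For STEE-fed SAMP8 minus water-fed SAMP8, 3 genes were called, against 2.62% of all genes, 2 higher with STEE (1.4%) and 1 lower (1.22%). For STEE-fed SAMP8 minus SAMR1, 4 genes were called, against 8.88% of all genes, 3 higher (5.35%) and 1 lower (3.53%). In all, 7 genes were called in at least 1 comparison and 30 in none. Each 2 of the 3 comparisons share a group, and the first and second share the water-fed SAMP8 arrays, so that a low mean of that group lowers the first difference and raises the second by the same amount.

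**Figure D1:**
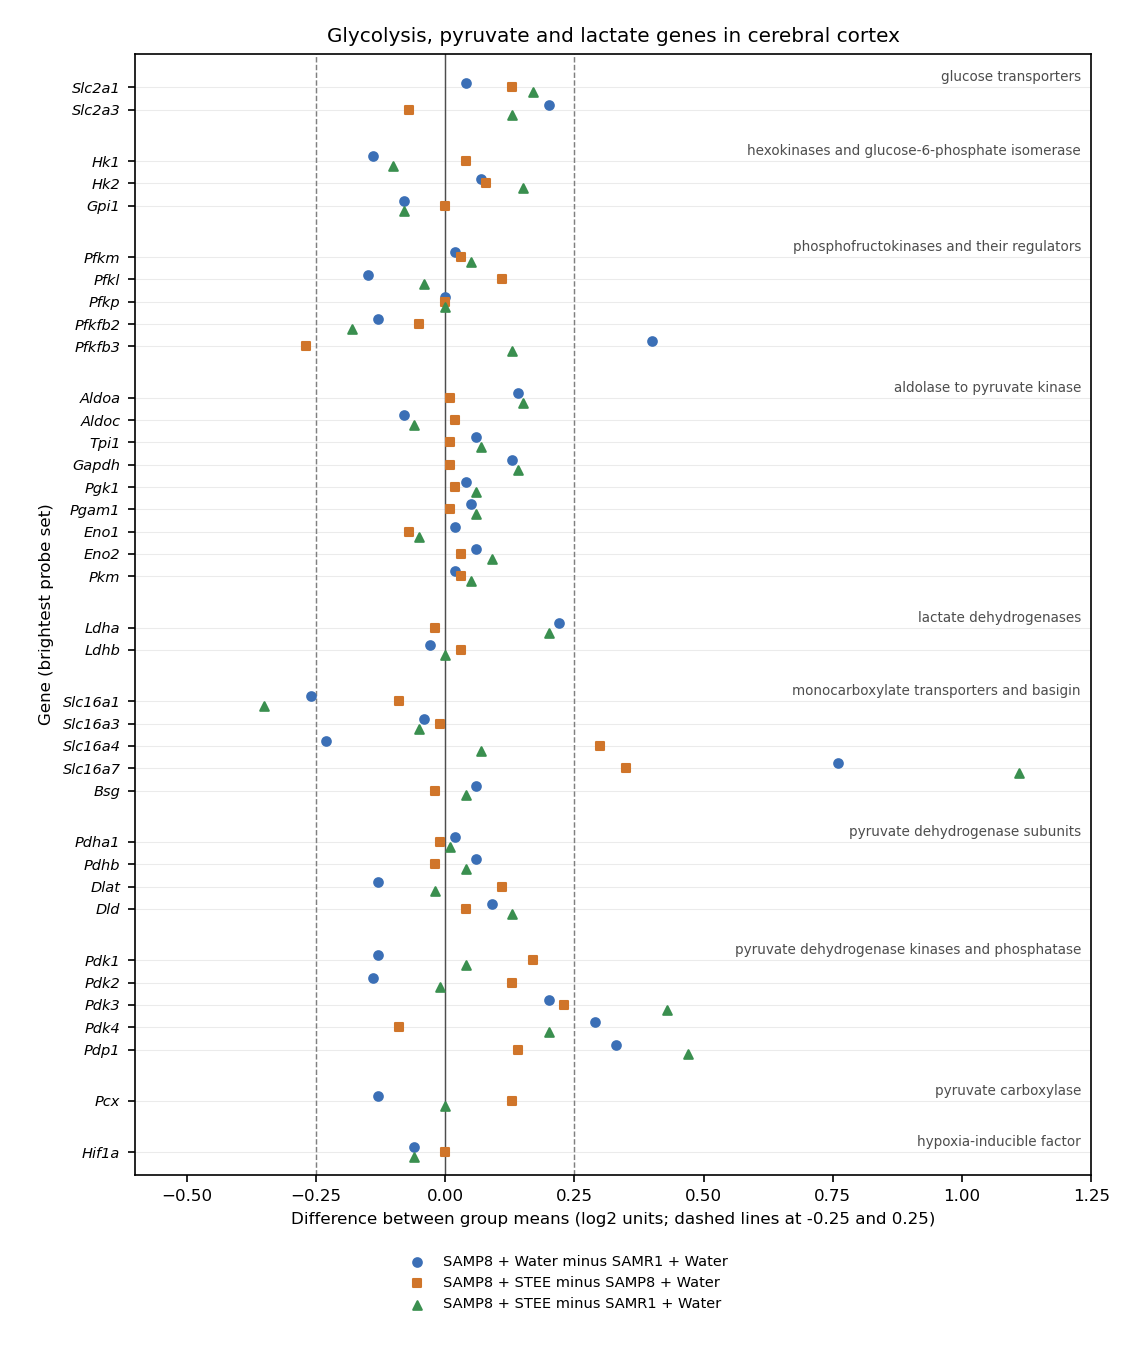
Difference between group means on the log2 scale (horizontal axis) for the brightest probe set of each of the 37 genes (vertical axis), ordered by role, with circles for water-fed SAMP8 minus SAMR1, squares for STEE-fed SAMP8 minus water-fed SAMP8 and triangles for STEE-fed SAMP8 minus SAMR1; dashed lines stand at -0.25 and 0.25. The genes from aldolase to pyruvate kinase lie within 0.15 of 0, and *Slc16a7* lies farthest to the right, at 1.11.

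The median difference over the 37 genes was 0.02 for water-fed SAMP8 minus SAMR1, 0.02 for STEE-fed SAMP8 minus water-fed SAMP8 and 0.05 for STEE-fed SAMP8 minus SAMR1, and the medians over all genes were 0.00, 0.00 and -0.01. The median size of a difference, regardless of sign, was 0.09, 0.04 and 0.07 for the members and 0.07, 0.06 and 0.08 for all genes. The members as a list thus lay close to the genes of the array as a whole, and the called differences came from a few of them.

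The list splits by brightness. A mean signal of at least 9 on the log2 scale was found for 19 members, most of them glycolytic enzymes, and for 1270 genes in all. Among the bright members, 1 was called for water-fed SAMP8 minus SAMR1, 0 for STEE-fed SAMP8 minus water-fed SAMP8 and 1 for STEE-fed SAMP8 minus SAMR1, against 6.85%, 0.472% and 7.48% of the bright genes of the array. That gene was *Pdp1* both times. The 18 dimmer members held 4, 3 and 3 of the called differences, against 8.17%, 2.75% and 8.96% of the 21257 genes below that signal.

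**Figure D2:**
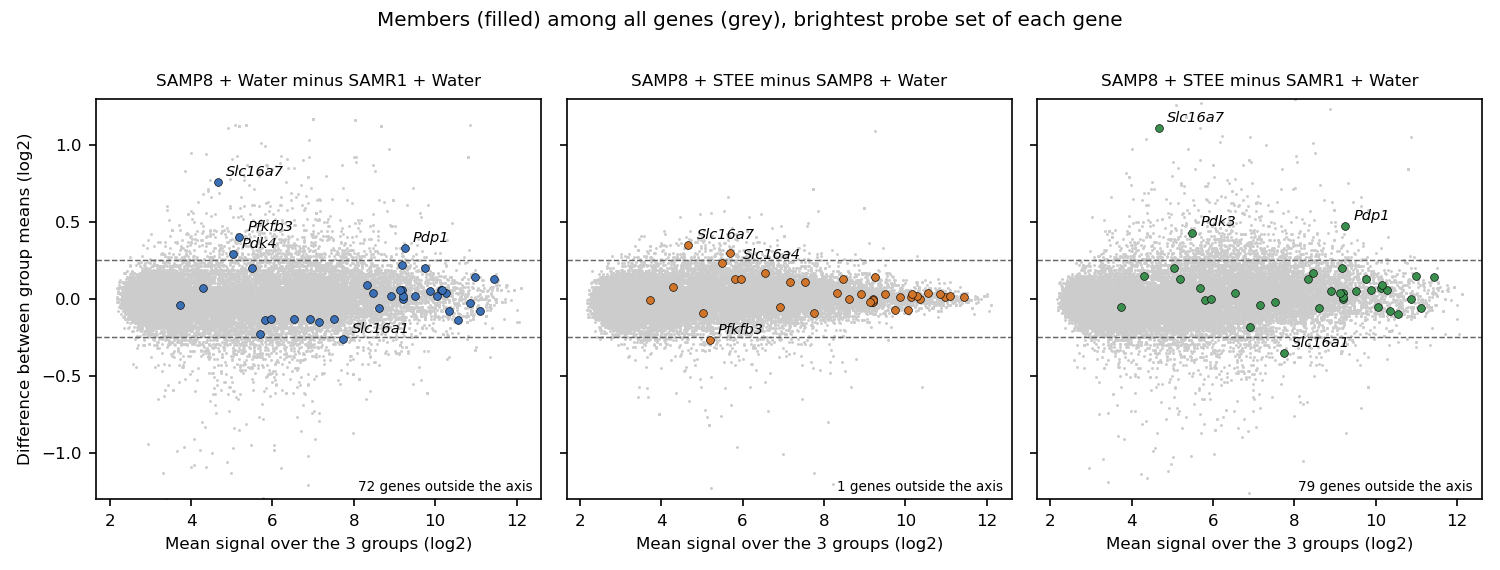
Difference between group means (vertical axis, log2) against the mean signal over the 3 groups (horizontal axis, log2) for the members (filled points, called genes named) and all 22527 genes (grey); 72, 1 and 79 genes lie outside the vertical axis of the 3 panels. The called members, apart from *Pdp1*, have signals below 9, and the bright members stay close to 0.

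At the brightest probe sets, the monocarboxylate transporters held the widest differences of any role. *Slc16a7* encodes MCT2, the high-affinity transporter through which neurons take up lactate. Its mean log2 signal was 4.04 in SAMR1, 4.80 in water-fed SAMP8 and 5.15 in STEE-fed SAMP8. The groups thus stood in the order SAMR1, water-fed SAMP8, STEE-fed SAMP8, with differences of 0.76 between the strains (1.69-fold) and 0.35 with STEE (1.27-fold). STEE-fed SAMP8 exceeded SAMR1 by 1.11, a fold of 2.16. As many as 129 of the 22527 genes were at least as much higher in water-fed SAMP8 than in SAMR1, 91 were at least as much higher with STEE, and 80 for STEE-fed SAMP8 minus SAMR1. The gene has a single probe set, whose signal in SAMR1 was below the array median of 4.16 and in STEE-fed SAMP8 above it. No detection value was used, so the SAMR1 signal was not shown to lie above background, and these folds describe the signal and not the amount of transcript.

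*Slc16a1* encodes MCT1, a transporter of endothelium, oligodendrocytes and other cells, and stood in the opposite order. Its mean log2 signal was 7.95 in SAMR1, 7.69 in water-fed SAMP8 and 7.60 in STEE-fed SAMP8. It was 0.26 lower in water-fed SAMP8 than in SAMR1 and a further 0.09 lower with STEE, which made STEE-fed SAMP8 0.35 lower than SAMR1. A second, dim probe set of the gene read 3.21, 3.22 and 3.23. Beside the oligodendrocyte markers, 5 of the 6 endothelial markers were also lower in water-fed SAMP8 than in SAMR1, and *Ly6c1* was higher by 0.28. Their list means were 6.70, 6.59 and 6.61 in SAMR1, water-fed SAMP8 and STEE-fed SAMP8, and *Slco1c1* read 8.58, 8.16 and 7.90. With STEE, 4 of the 6 were higher and 2 lower. The astrocyte markers had means of 8.71, 8.65 and 8.63, with 4 of 6 lower and 1 higher in water-fed SAMP8 than in SAMR1. The part of these markers in the values of *Slc16a1* was not tested.

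*Slc16a4*, a less studied transporter of the same family, read 5.74 in SAMR1, 5.51 in water-fed SAMP8 and 5.81 in STEE-fed SAMP8. Water-fed SAMP8 was lowest, 0.23 below SAMR1 and 0.30 below STEE-fed SAMP8, and the other groups differed by 0.07. Its other probe set did not repeat this order, with 3.54, 3.56 and 3.45. *Slc16a3*, which encodes MCT4, the low-affinity exporter of glycolytic cells, read 3.76, 3.72 and 3.71, below the array median in every group. *Bsg*, or basigin, the chaperone that brings MCT1 and MCT4 to the membrane, read 9.16, 9.22 and 9.20.

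**Figure D3:**
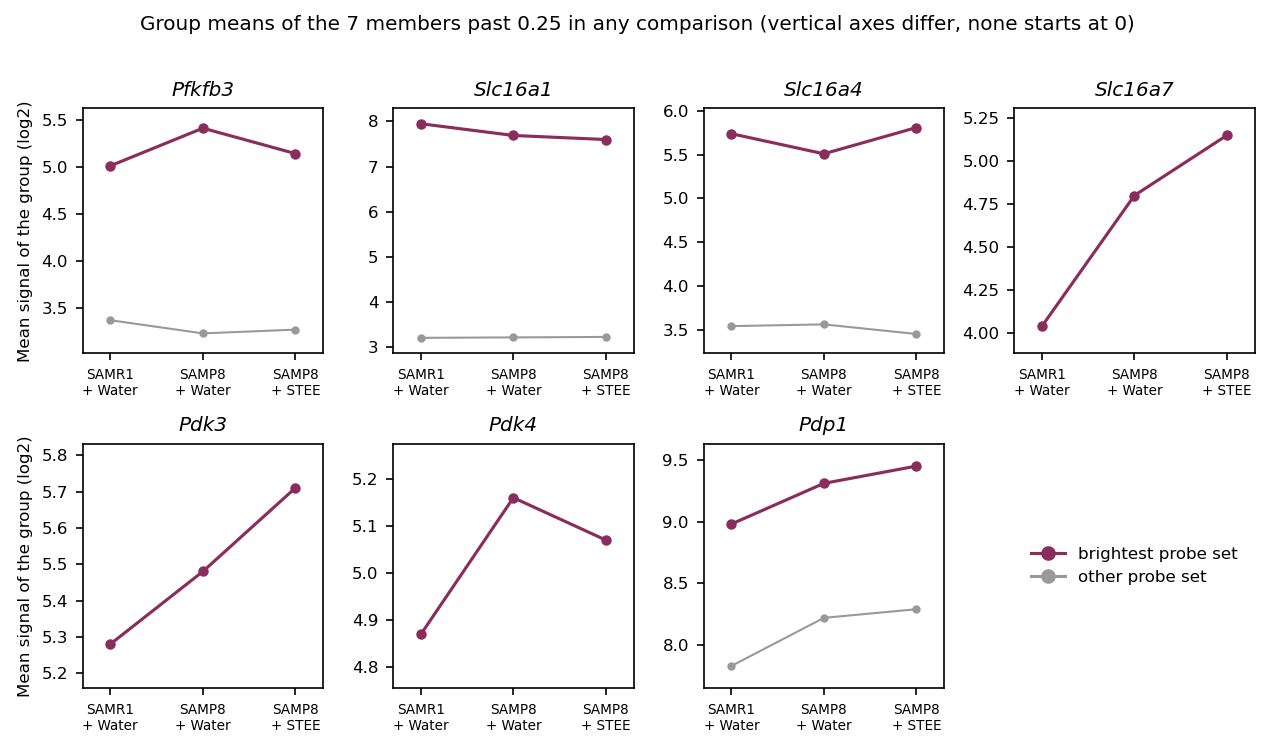
Mean signal (vertical axis, log2, a different range in each panel) in the 3 groups for every probe set of the 7 members called in any comparison; the dark line is the brightest probe set and grey lines are others, and each point is the authors' mean of a group, with no error given. *Slc16a7*, *Pdk3* and both probe sets of *Pdp1* are lowest in SAMR1 and highest in STEE-fed SAMP8, while the dim second probe sets of *Pfkfb3*, *Slc16a1* and *Slc16a4* do not follow the bright ones.

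The enzymes that set the activity of pyruvate dehydrogenase were the second role with called differences. *Pdp1*, the phosphatase subunit that reactivates the complex, had means of 8.98 in SAMR1, 9.31 in water-fed SAMP8 and 9.45 in STEE-fed SAMP8. It was 0.33 higher in water-fed SAMP8 than in SAMR1 (1.26-fold), 0.14 higher again with STEE, and 0.47 higher in STEE-fed SAMP8 than in SAMR1 (1.39-fold). Both of its probe sets gave this order, the second with 7.83, 8.22 and 8.29, and *Pdp1* was the only called gene with more than 1 probe set of which all were called in the strain comparison.

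*Pdk3*, a kinase that inactivates the complex, read 5.28 in SAMR1, 5.48 in water-fed SAMP8 and 5.71 in STEE-fed SAMP8. Neither step was called, at 0.20 between the strains and 0.23 with STEE, and their sum was, at 0.43 or 1.35-fold for STEE-fed SAMP8 minus SAMR1. *Pdk4*, the kinase induced by fasting and fatty acids, read 4.87, 5.16 and 5.07, so that water-fed SAMP8 was highest, 0.29 above SAMR1 and 0.09 above STEE-fed SAMP8. Both genes have a single probe set.

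*Pdk1*, a kinase known as a target of the hypoxia-inducible factor, read 6.57 in SAMR1, 6.44 in water-fed SAMP8 and 6.61 in STEE-fed SAMP8. Water-fed SAMP8 was lowest, by 0.13 against SAMR1 and 0.17 against STEE-fed SAMP8. All 4 probe sets of *Pdk1* were higher with STEE, by 0.13 to 0.29. Of the 4, 3 were lower in water-fed SAMP8 than in SAMR1, by 0.13 to 0.44 in size, the exception at 0.01. Both the 0.29 and the 0.44 came from the dimmest probe set, which read 3.49, 3.05 and 3.34, below the array median in every group. *Pdk2*, the kinase most widely expressed in tissues, was also lowest in water-fed SAMP8, with 5.86, 5.72 and 5.85. Across the 4 kinases and the phosphatase, 4 of 5 were higher with STEE than without it, by 0.13 to 0.23, and *Pdk4* was lower by 0.09. Of these differences with STEE 0 were called, and 10903 of the 22527 genes of the array were higher with STEE. For STEE-fed SAMP8 minus SAMR1, *Pdk1* and *Pdk2* stood at 0.04 and -0.01.

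The subunits of the complex itself differed less. *Pdha1*, the catalytic alpha subunit, read 9.19, 9.21 and 9.20 in SAMR1, water-fed SAMP8 and STEE-fed SAMP8, and *Pdhb*, the beta subunit, read 9.09, 9.15 and 9.13. *Dld*, the dehydrogenase component, read 8.25, 8.34 and 8.38. *Dlat*, the acetyltransferase core, read 7.57, 7.44 and 7.55, but its other probe sets were 0.20 and 0.06 higher in water-fed SAMP8 than in SAMR1, where the brightest was 0.13 lower. The dimmer probe sets of the E1 subunits stood apart from their bright ones. The second *Pdha1* probe set was 0.35 higher in water-fed SAMP8 than in SAMR1, at 7.45 in SAMR1 and 7.80 in water-fed SAMP8, and the second *Pdhb* probe set had a difference of -0.57, at 4.09 in SAMR1 and 3.52 in water-fed SAMP8. The strain difference of *Pdha1* and *Pdhb* thus depended on the probe set. *Pcx*, pyruvate carboxylase, which feeds pyruvate into the citric acid cycle as oxaloacetate and is mainly an enzyme of astrocytes in brain, read 6.0 in SAMR1, 5.87 in water-fed SAMP8 and 6.0 in STEE-fed SAMP8. It was 0.13 lower in water-fed SAMP8 than in both other groups, within the range of most genes.

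Among the enzymes of glycolysis, *Pfkfb3* had the only called differences at a brightest probe set. It makes fructose 2,6-bisphosphate, the strongest activator of phosphofructokinase, and is kept low in neurons. Its mean log2 signal was 5.01 in SAMR1, 5.41 in water-fed SAMP8 and 5.14 in STEE-fed SAMP8. Water-fed SAMP8 was highest, 0.40 above SAMR1 (1.32-fold) and 0.27 above STEE-fed SAMP8 (1.21-fold), and STEE-fed SAMP8 stayed 0.13 above SAMR1. The second probe set of the gene, at 3.37, 3.23 and 3.27, went the other way by 0.14 between the strains. *Pfkfb2*, the isoform known from heart, read 7.02, 6.89 and 6.84, and was thus lowest with STEE.

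The phosphofructokinase subunits themselves lay near 0 at their brightest probe sets. *Pfkm* read 8.88, 8.90 and 8.93, and *Pfkp*, the platelet type, read 9.20 in all 3 groups. *Pfkl*, the liver type, read 7.22 in SAMR1, 7.07 in water-fed SAMP8 and 7.18 in STEE-fed SAMP8, and its second probe set gave the same order with 6.41, 6.24 and 6.35. For *Pfkp*, the dimmer probe sets disagreed with each other. One read 5.43, 5.81 and 5.78, and the other read 5.99, 5.45 and 5.10, which is 0.89 lower in STEE-fed SAMP8 than in SAMR1.

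From aldolase to pyruvate kinase, 9 genes were measured and none was called at its brightest probe set in any of the 3 comparisons. They include *Gapdh*, often used as a reference in expression work. In the order SAMR1, water-fed SAMP8 and STEE-fed SAMP8, *Pgk1* (phosphoglycerate kinase) read 10.24, 10.28 and 10.30. *Pgam1* (phosphoglycerate mutase) read 9.84, 9.89 and 9.90, and *Pkm* (pyruvate kinase) read 9.48, 9.50 and 9.53. The study also measured the human forms of these genes in a neuroblastoma cell line and reported higher transcript levels after treatment with STEE. Those cultured cells differ from the cortex in species, dose and length of treatment, and are not analysed here. In the cortex, *Pgk1*, *Pgam1* and *Pkm* were 0.02, 0.01 and 0.03 higher with STEE, within a few times the rounding of the values.

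*Aldoa* (aldolase A) read 10.88, 11.02 and 11.03, and *Gapdh* (glyceraldehyde-3-phosphate dehydrogenase) read 11.35, 11.48 and 11.49. These were the widest strain differences among the 9 genes, at 0.14 and 0.13. *Aldoa* had 5 probe sets, 4 of them higher in water-fed SAMP8. The largest difference, 0.29, was past the call, at a probe set that read 10.17, 10.46 and 10.47. The bright *Gapdh* probe set carries 8 gene symbols, *Gapdh* pseudogenes among them, so its signal may hold theirs too. *Aldoc*, the aldolase of astrocytes, read 11.15, 11.07 and 11.09, lower in water-fed SAMP8 than in SAMR1 at both of its probe sets. *Tpi1* read 10.09, 10.15 and 10.16, and *Eno2*, the enolase of neurons, read 10.11, 10.17 and 10.20. *Eno1*, the enolase of glia and other cells, read 10.06, 10.08 and 10.01 and was the only one of the 9 genes lower with STEE. Across the 9 genes the differences with STEE ran from -0.07 to 0.03, with a median of 0.01.

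Both lactate dehydrogenase genes were bright. *Ldha*, the subunit that favours lactate production, read 9.04 in SAMR1, 9.26 in water-fed SAMP8 and 9.24 in STEE-fed SAMP8, 0.22 higher in water-fed SAMP8 than in SAMR1 and just short of a call. *Ldhb*, the subunit that favours lactate use, read 10.87, 10.84 and 10.87 at its brightest probe set. Its other 3 probe sets were higher in water-fed SAMP8 than in SAMR1, by 0.01 to 0.17.

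The genes of glucose uptake and of the first steps of its use were below the call at their brightest probe sets, while dimmer probe sets of *Slc2a3*, *Slc2a1* and *Gpi1* reached it. *Slc2a3*, or GLUT3, the transporter of neurons, read 9.64, 9.84 and 9.77, and all 4 of its probe sets were higher in water-fed SAMP8 than in SAMR1, by 0.04 to 0.38. *Slc2a1*, or GLUT1, the transporter of the blood-brain barrier and glia, read 8.39, 8.43 and 8.56. All 3 of its probe sets were higher with STEE than without it, by 0.13, 0.25 and 0.15, while the strain differences were 0.04, 0.01 and 0.02. *Hk1*, the main hexokinase of brain, read 10.63, 10.49 and 10.53 at a probe set that carries 7 symbols, the ribosomal protein gene *Rpl17* among them. At its brightest probe set of its own it read 9.77, 9.73 and 9.73. *Hk2*, the inducible hexokinase, read 4.22, 4.29 and 4.37. *Gpi1*, glucose-6-phosphate isomerase, read 10.40, 10.32 and 10.32, and its dimmest probe set, at 6.93, 6.77 and 6.60, was 0.33 lower in STEE-fed SAMP8 than in SAMR1.

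Over all 87 probe sets of the members, 13 were called for water-fed SAMP8 minus SAMR1 (14.9%, against 8.52% of all probe sets), 7 for STEE-fed SAMP8 minus water-fed SAMP8 (8.05%, against 2.67%) and 13 for STEE-fed SAMP8 minus SAMR1 (14.9%, against 9.45%). Probe sets of the same gene share its transcripts and are not separate observations. Several of these calls belong to genes whose brightest probe set was not called, such as the dimmer probe sets of *Pdk1*, *Pfkp*, *Pdha1*, *Pdhb* and *Aldoa*.

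*Hif1a*, the oxygen-regulated subunit of the hypoxia-inducible factor, was not called. Its mean log2 signal was 8.65 in SAMR1 and 8.59 in both SAMP8 groups. This factor is controlled mainly through the stability of its protein, which the array does not measure. The 16 other genes of the factor and its known targets read here were chosen with earlier results of these data known. Their counts beside the shares of all genes are therefore no test of enrichment. Of the 16, 6 were called higher in water-fed SAMP8 than in SAMR1 (4.25% of all genes) and 0 lower (3.84%). They were *P4ha1* (a collagen prolyl hydroxylase, by 0.51), *Ddit4* (an inhibitor of mTORC1 signaling, by 0.48), *Egln1* and *Egln3* (the oxygen sensors that mark the factor for breakdown, by 0.40 and 0.34), *Car12* (a carbonic anhydrase, by 0.37) and *Kdm3a* (a histone demethylase, by 0.26). With STEE, against 2.62% of all genes, 1 of the 16 was called, *P4ha1*, which read 6.01 in SAMR1, 6.52 in water-fed SAMP8 and 6.21 in STEE-fed SAMP8. Its order of groups was that of *Pfkfb3*. *Vegfa* and *Car9*, other targets of the factor, differed by 0.04 and 0.03 between the strains.

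**Figure D4:**
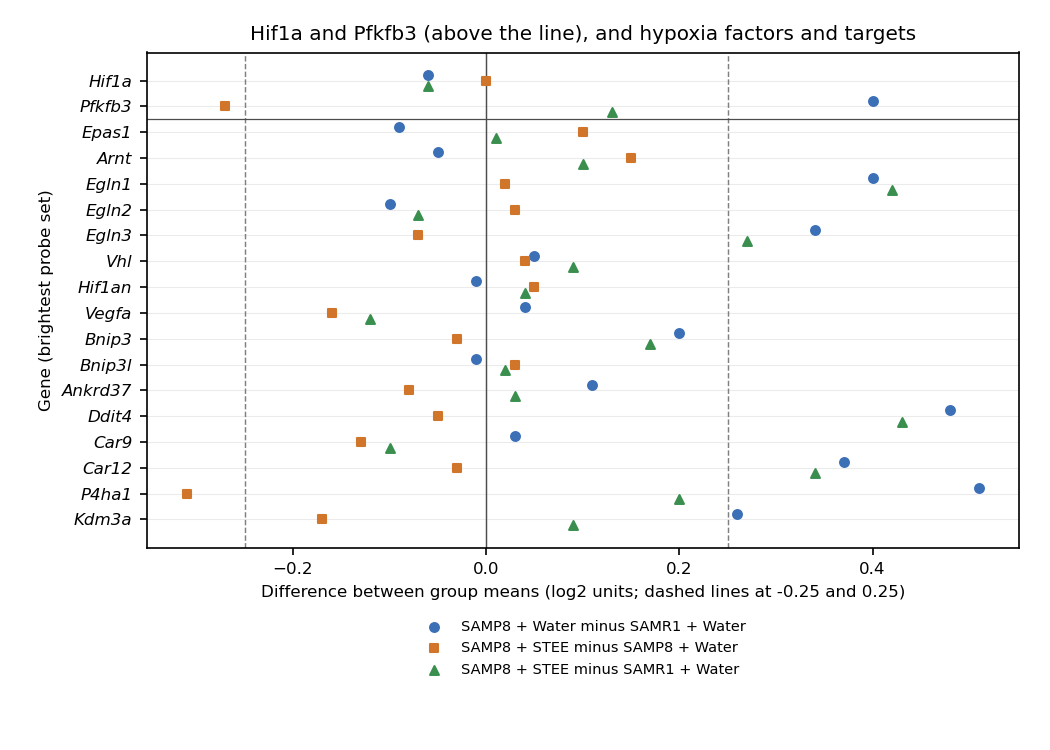
Difference between group means on the log2 scale (horizontal axis) for *Hif1a*, *Pfkfb3* and 16 other genes of the hypoxia-inducible factor and its targets (vertical axis), with circles for water-fed SAMP8 minus SAMR1, squares for STEE-fed SAMP8 minus water-fed SAMP8 and triangles for STEE-fed SAMP8 minus SAMR1. *Pfkfb3* and 6 of the 16 genes lie right of 0.25 between the strains, and only *Pfkfb3* and *P4ha1* lie left of -0.25 with STEE. The genes were chosen with earlier results of these data known.

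A further 38 genes belong to glycolysis, gluconeogenesis and pyruvate metabolism or to related gene families. Of these, 6 were called for water-fed SAMP8 minus SAMR1, 4 higher and 2 lower. For STEE-fed SAMP8 minus water-fed SAMP8, 0 were called, and for STEE-fed SAMP8 minus SAMR1, 6 were called, 5 higher and 1 lower. The shares of all genes were 8.09%, 2.62% and 8.88%. The cytosolic and a mitochondrial malic enzyme, *Me1* and *Me3*, were 0.40 and 0.30 higher in water-fed SAMP8 than in SAMR1. *Pdhx*, the subunit that anchors *Dld* in the pyruvate dehydrogenase complex, was 0.30 higher, and *Pgam2*, the muscle form of phosphoglycerate mutase, 0.32 higher at a dim probe set. Lower were the muscle enolase *Eno3* by 0.26 and *Pgm1*, a phosphoglucomutase, by 0.25. In STEE-fed SAMP8, *Me2* and *Slc2a13* were above SAMR1 by 0.32 and 0.31. Their steps were 0.14 and 0.19 between the strains and 0.18 and 0.12 with STEE. *Slc2a13*, of the glucose transporter family, encodes a transporter of myo-inositol. *Mpc1* and *Mpc2*, which carry pyruvate into mitochondria, differed by 0.10 at most in any comparison.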

How the data were processed

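Biotin-labelled RNA of 6 samples of mouse cortex was measured on Affymetrix array strips. The authors summarised the intensities with RMA in Expression Console, averaged each group in Transcriptome Analysis Console and deposited, for 45077 probe sets, bi-weight averages of the log2 signal of a group to 2 decimals. The deposited tables also hold the authors' fold changes, ANOVA p-values and FDR p-values, which were not used. The water-fed SAMP8 means were identical in both tables. Groups were taken from the sample titles. Differences between the group means were computed on the log2 scale, with a rounding error of at most 0.01, for 3 comparisons. Each gene was read from its brightest probe set, a call was a difference of at least 0.25, and the same count over 22527 gene symbols served as background. Only the group means were used, with no value per array, so no error, interval or test is given, and the number of arrays limits the precision. Named are members past 0.25, the 5 largest differences in each direction and members the study names, beside the other members by role. *Drd1* and *Tigar* were matched to older array symbols through the RefSeq table. Some genes of the marker and pathway lists are not reported here, and the lists were counted without them. The counting was tested on simulated data. Alternatives changed the probe set, the filter on dim probe sets, the centring and the size of a call. The members and lists were chosen with earlier results of these data known. Python 3.11.15, numpy 2.4.6, pandas 2.3.3 and matplotlib 3.10.9 were used.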

Additional observations from a re-analysis of the deposited data

How the results depend on the processing

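No paired analysis was possible because the columns used here are group means with no value per array, and for the same reason no replicate could be left out. The water-fed SAMP8 means were the same in both tables, so reading them from the other table could give no other value. The size set for a call moved the counts most. At 0.15 on the log2 scale, 10, 5 and 10 of the 37 genes were called for water-fed SAMP8 minus SAMR1, STEE-fed SAMP8 minus water-fed SAMP8 and STEE-fed SAMP8 minus SAMR1, against 22.1%, 12.9% and 23.8% of all genes. At 0.40, against 2.64%, 0.497% and 2.85% of all genes, 2 genes were called in the first comparison, *Slc16a7* and *Pfkfb3*, 0 in the second and 3 in the third. With the mean or the median over all probe sets of a gene, 1 gene, *Slc16a7*, was called with STEE. *Pfkfb3* and *Slc16a4* were lost there, and *Pfkfb3* and *Slc16a1* between the strains, where *Pdhb* was gained. These averages also moved the median strain difference of the members, from 0.02 to 0.043 with the mean and 0.04 with the median. *Slc16a7* and *Pdp1* kept their calls for water-fed SAMP8 minus SAMR1 and STEE-fed SAMP8 minus SAMR1 under each of the 6 alternatives of probe set, filter and centring. Without probe sets shared between transcripts by design (_s_ and _x_), *Slc2a3* was called as well in both of these comparisons. No called difference changed sign under these 6 alternatives. Dim probe sets limit what can be read from *Slc16a7*, *Pfkfb3* and *Pdk4*.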
